A study of Rattus norvegicus with 12 samples.

Results

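The nuclear subunits of oxidative phosphorylation were followed in rat kidney as 86 rows of the deposited gene annotation, of 20455 genes with reads. The members were the rows annotated as protein-coding whose symbol marked a subunit of complex I (Ndufa, Ndufb, Ndufc, Ndufs and Ndufv), complex II (Sdha to Sdhd), complex III (Uqcr), complex IV (Cox4 to Cox8) or complex V (Atp5). They comprised 41 rows of complex I, 4 of complex II, 7 of complex III, 15 of complex IV and 19 of complex V. Of the 86 members 77 had enough reads to be tested, 39, 4, 7, 11 and 16 in complexes I to V.

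Complexes I to IV form the respiratory chain of the inner mitochondrial membrane. Electrons enter at complex I from NADH or at complex II from succinate, pass through coenzyme Q to complex III and through cytochrome c to complex IV, and complex V, the ATP synthase, makes ATP from the proton gradient. Most subunits are encoded in the nucleus and imported, and a small set, including core subunits of complexes I, III and IV and membrane subunits of complex V, is encoded in mitochondrial DNA; the proximal tubule and the thick ascending limb of the kidney are rich in mitochondria and drive salt transport with their ATP.

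RNA was sequenced from rat kidney in 12 libraries. The CPB+Nitrite group (4 libraries) received cardiopulmonary bypass, in which a pump and oxygenator take over from heart and lungs, together with nitrite, a source of nitric oxide in the body; the CPB group (4 libraries) had bypass, and the sham group (4 libraries) is labelled sham, with no further detail of the procedure. The labels name the tissue as kidney and give no strain, age, sex, dose, time point or kidney region, and do not say whether the 4 libraries of a group came from separate animals, so the p-values measure the spread between libraries. The study was designed around kidney injury after bypass and protection by nitrite.

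Library totals ran from 16.8 to 25.8 M reads, and levels are counts-per-million (CPM) after scaling by edgeR's TMM factors. A gene was called higher or lower in 1 fit of all 12 libraries by edgeR's quasi-likelihood test at a Benjamini-Hochberg adjusted p under 0.05 over 14664 genes. Before any comparison 2 libraries stood apart in their marker genes. CPB+Nitrite 2 had a summed level of 780 CPM over 5 thick ascending limb markers, against 5611 to 11110 CPM in the other 11 libraries. Its collecting duct markers summed to 4106 CPM (687 to 1949 CPM in the others), its endothelial markers to 1996 CPM (76.9 to 260.2 CPM), its erythrocyte markers to 7742 CPM (306 to 3630 CPM) and its podocyte markers to 729 CPM (164 to 383 CPM). In sham 1, brown fat markers summed to 193 CPM (23.4 to 108 CPM in the other 11), skeletal and heart muscle markers to 12.5 CPM (0.0409 to 3.51 CPM) and fibroblast and smooth muscle markers to 308 CPM (34.1 to 184 CPM). Kidney epithelial markers were present in every library. Marker genes were looked up among genes with reads, so a marker at 0 in all 12 libraries would not have been seen. In whole tissue, fewer cells of a type and less RNA per cell cannot be told apart.

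Promoter sequences were printed for 4 members, to show the letters in which nuclear regulators of mitochondrial genes are known to bind. The RefSeq table (build GRCr8, 250 bases before to 50 after the annotated start, read 5′ to 3′ along the gene) held a promoter on the files' chromosome and strand for 70 of the 86 members. Capitals mark matches, on either strand, to GCGCA followed directly by its reverse complement TGCGC (nuclear respiratory factor 1, NRF1), CCGGAAG (the ETS family, which includes GABPA), AAGGTCA (estrogen-related receptors, ERR) or AAGATGGCG (YY1); none of these letter strings contains another. Sdhd (chr8:59850592-59850891, minus strand) and Atp5mc3 (chr3:79220615-79220914, minus strand) were lower after bypass. Both are among the 3 of 14 promoters of members called lower that held ERR letters, so they are not typical of those members. Cox4i1 (chr19:65630133-65630432, plus strand) stands for complex IV, in which no member was called. Atp5po (chr11:44657434-44657733, minus strand) is 1 of 4 tested members with an NRF1 match.
Sdhd: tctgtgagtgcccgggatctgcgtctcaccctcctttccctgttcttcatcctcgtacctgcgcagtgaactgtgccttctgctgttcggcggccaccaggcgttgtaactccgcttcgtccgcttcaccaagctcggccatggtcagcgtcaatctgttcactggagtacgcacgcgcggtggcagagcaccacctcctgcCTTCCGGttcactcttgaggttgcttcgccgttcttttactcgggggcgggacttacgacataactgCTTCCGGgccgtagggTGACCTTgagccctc
Atp5mc3: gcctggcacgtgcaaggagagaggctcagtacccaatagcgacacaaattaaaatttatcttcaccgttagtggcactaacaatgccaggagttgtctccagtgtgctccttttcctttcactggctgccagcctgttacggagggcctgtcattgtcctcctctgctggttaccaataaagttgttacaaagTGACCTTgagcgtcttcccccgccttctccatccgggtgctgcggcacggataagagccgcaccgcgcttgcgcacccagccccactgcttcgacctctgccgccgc
Cox4i1: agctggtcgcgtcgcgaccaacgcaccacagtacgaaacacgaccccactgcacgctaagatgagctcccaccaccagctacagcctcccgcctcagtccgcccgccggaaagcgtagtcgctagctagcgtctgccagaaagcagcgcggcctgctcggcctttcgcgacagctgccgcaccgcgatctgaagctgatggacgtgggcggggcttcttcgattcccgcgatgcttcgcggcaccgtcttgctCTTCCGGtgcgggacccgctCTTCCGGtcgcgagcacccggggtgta
Atp5po: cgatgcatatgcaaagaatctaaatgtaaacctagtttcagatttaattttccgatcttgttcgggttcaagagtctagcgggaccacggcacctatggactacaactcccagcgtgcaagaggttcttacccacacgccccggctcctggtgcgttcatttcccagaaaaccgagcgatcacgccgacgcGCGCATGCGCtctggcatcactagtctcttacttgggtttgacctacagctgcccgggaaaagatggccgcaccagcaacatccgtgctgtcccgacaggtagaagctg

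Sdhd held 2 ETS matches and 1 ERR match, Cox4i1 held 2 ETS matches, and Atp5mc3 and Atp5po held 1 match each. Over the 64 distinct promoters of tested members, ETS letters were present in 29.7%, ERR letters in 14.1%, YY1 letters in 15.6% and NRF1 letters in 6.25%. Over the 11274 promoters of tested genes these shares were 16.6%, 3.01%, 3.41% and 1.73%, and over all 27457 promoters held by RefSeq they were 9.22%, 4.37%, 1.93% and 0.932%. The GC box GGGCGG, in contrast, was in 43.8% of the members' promoters and 60.3% of those of tested genes, and the TATA box TATAAA in 7.81% and 7.11%. Among members called lower after bypass 3 of 14 promoters (21.4%) had ERR letters, and among members not called 6 of 50 (12%) had them; no ERR match lay in the 7 complex IV promoters. These are matches of letters in a single window, and neither binding nor a difference between the sets was tested.

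Bypass was set against sham to ask what it did to these transcripts. After bypass 15 of the 77 tested members were lower and 0 were higher. Among all genes tested 21.5% were lower, 21.7% higher and 43.2% changed in either direction, so the 19.48% of members called lower lay near the share over all genes and is not a result about the members. By direction, 73 of 77 had a log2 change below 0, against 52.6% of all genes (4 members and 47.4% of all genes were above 0), and their median change was -0.31, against -0.05 over all genes. At an unadjusted p under 0.05, 30 members were lower and 0 higher (27% of all genes were lower and 25.7% higher at that level). In 15 members every CPB library lay below every sham library, against 24.8% of all genes.

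The members called lower were 9 of 39 in complex I, 2 of 4 in complex II, 1 of 7 in complex III, 0 of 11 in complex IV and 3 of 16 in complex V. Median log2 changes were -0.35, -0.44, -0.33, -0.12 and -0.30 for complexes I to V. No difference between complexes was tested.

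**Figure D1:**
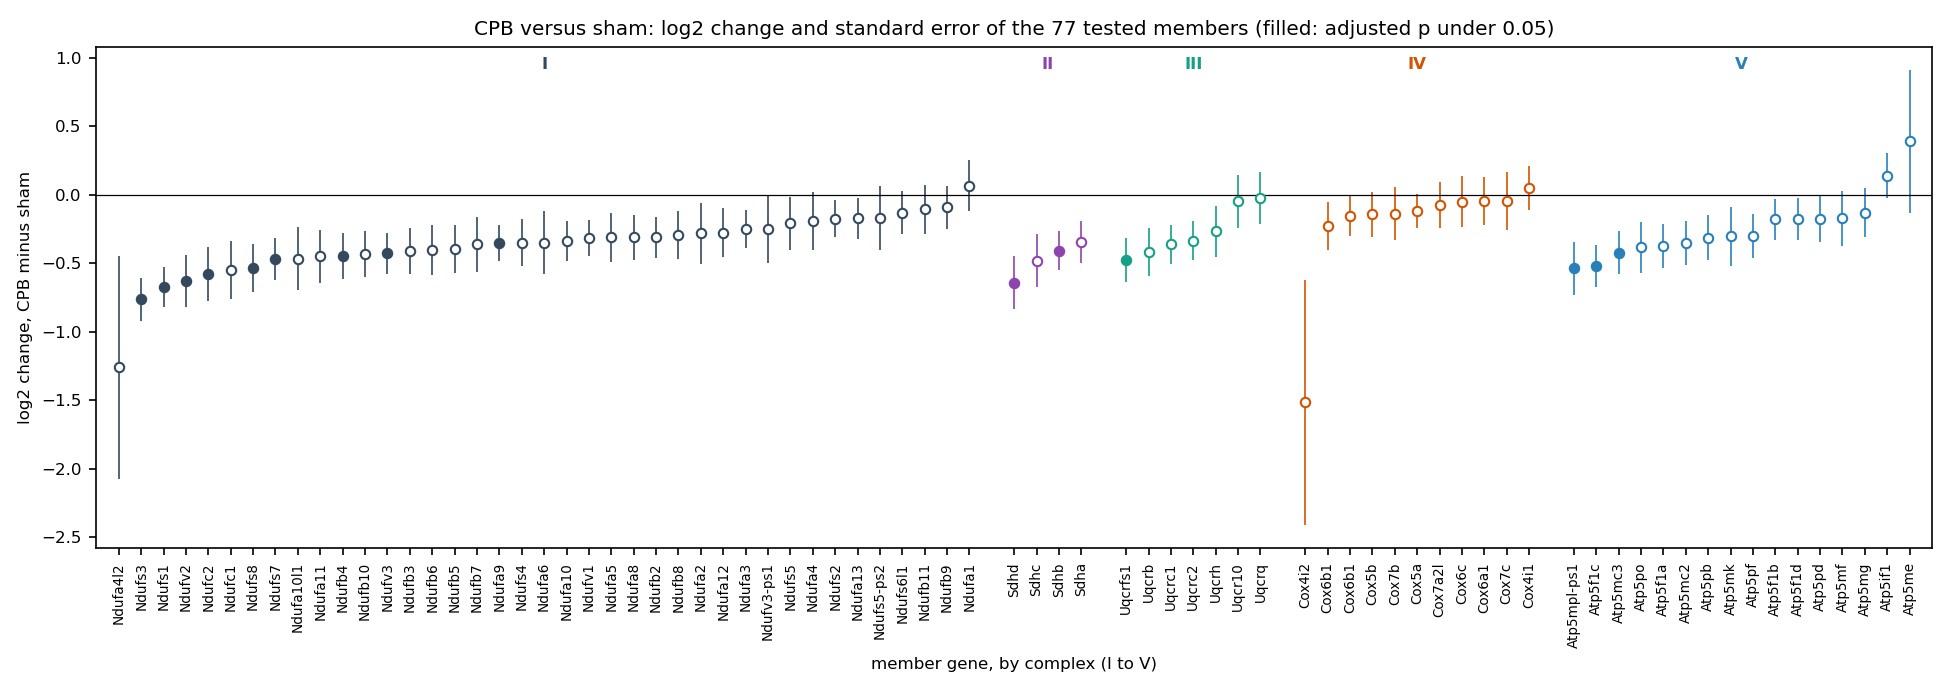
Log2 change of CPB minus sham (y axis) with its standard error for each of the 77 tested members, grouped by complex along the x axis and ordered by size within it; filled points passed an adjusted p of 0.05. The 15 filled points are all below 0 and none is in complex IV; the wide bars belong to Ndufa4l2, Cox4i2 and Atp5me, which had few reads.

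In complex I the nuclear core subunits, which carry NADH oxidation and the electron path to coenzyme Q, held 5 of its 9 calls. Ndufs3, a core subunit of the peripheral arm (chr3:76876646-76883824, minus strand, build mRatBN7.2), had 97.8, 111, 106 and 81.5 CPM in the CPB+Nitrite libraries, 92.8, 64.7, 72.5 and 72.5 CPM in the CPB libraries, and 127, 138, 146 and 103 CPM in the sham libraries. All 4 CPB libraries were below all 4 sham libraries, and CPB 1 was the highest of the CPB group. Ndufs3 fell by 0.76 ± 0.16 (SE, adjusted p = 0.00346) on the log2 scale, which is 41.1% lower. Ndufs1, the large iron-sulfur subunit that passes electrons inward from the NADH site (chr9:64546225-64579893, minus strand), had 181, 151, 233 and 165 CPM in the CPB+Nitrite libraries, 179, 169, 174 and 199.9 CPM in the CPB libraries, and 264, 278, 308 and 303 CPM in the sham libraries. The CPB and CPB+Nitrite libraries overlapped one another and all 8 lay below every sham library. Ndufs1 fell by 0.67 ± 0.15 (SE, adjusted p = 0.00459) in CPB, 37.3% lower.

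Ndufv2, an iron-sulfur subunit of the NADH-oxidising module, had 142, 195, 160.5 and 120.3 CPM in the CPB+Nitrite libraries, 156, 106, 123 and 107 CPM in the CPB libraries, and 171, 211, 224 and 153 CPM in the sham libraries. CPB 1 overlapped sham 4, and the other 3 CPB libraries were below all sham libraries. Ndufv2 fell by 0.63 ± 0.19 (SE, adjusted p = 0.0189) on the log2 scale. Ndufs7 and Ndufs8, the iron-sulfur subunits nearest the coenzyme Q site, fell by 0.47 ± 0.15 (SE, adjusted p = 0.0264) and 0.54 ± 0.18 (SE, adjusted p = 0.0272). Ndufv1, which binds NADH, did not pass: its log2 change was -0.31 ± 0.13 (SE, adjusted p = 0.0712). Of the 32 complex I members outside the core 4 were lower, by 0.35 (Ndufa9) to 0.58 (Ndufc2), with Ndufb4 and Ndufv3 between them.

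Complex II oxidises succinate and is encoded in the nucleus throughout. Sdhd, a membrane anchor subunit (chr8:50944704-50954238, minus strand), had 163, 238, 202 and 115 CPM in the CPB+Nitrite libraries, 163, 133, 146 and 133 CPM in the CPB libraries, and 209, 245, 246 and 197 CPM in the sham libraries. The highest CPB library was below the lowest sham library, and the CPB+Nitrite libraries spanned both groups. Sdhd fell by 0.64 ± 0.20 (SE, adjusted p = 0.0206) on the log2 scale, and Sdhb, the iron-sulfur subunit, by 0.41 ± 0.14 (SE, adjusted p = 0.0372). Sdha, the flavoprotein that oxidises succinate, averaged 482 ± 86.2 CPM in CPB+Nitrite, 467 ± 50.3 CPM in CPB and 592 ± 22.0 CPM in sham (SD, n = 4 each). Its CPB libraries all lay below its sham libraries, yet its log2 change of -0.34 ± 0.15 (SE, adjusted p = 0.0833) did not pass.

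In complex III the call was Uqcrfs1, the Rieske iron-sulfur protein (chr17:33977921-33982479, plus strand). It had 242, 295, 267 and 183 CPM in the CPB+Nitrite libraries, 230.5, 197, 224 and 213 CPM in the CPB libraries, and 276, 317, 348 and 261 CPM in the sham libraries. The CPB and sham ranges did not overlap, and Uqcrfs1 fell by 0.48 ± 0.16 (SE, adjusted p = 0.0314) on the log2 scale. The large core proteins Uqcrc1 and Uqcrc2 had log2 changes of -0.36 (adjusted p = 0.0534) and -0.33 (adjusted p = 0.0702). Grouped by cofactor, a grouping made with these values known, 6 of the 7 tested iron-sulfur proteins of complexes I to III were called lower, Ndufv1 being the exception. Of the other 70 members 9 were called lower, and of all genes 21.5%. Over the 12 single-library omissions Ndufs1 stayed called in 12, Ndufv2 in 8, Uqcrfs1 in 7, Ndufs7 and Ndufs8 in 6 each and Sdhb in 5. Without CPB 2 only Ndufs1 of the 7 was called. The difference between these groups was not tested.

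In complex V the 3 calls were Atp5f1c, Atp5mc3 and Atp5mpl-ps1. Atp5f1c, the central stalk subunit of the catalytic F1 head (chr17:68423909-68608367, plus strand), had 287, 346, 312 and 225 CPM in the CPB+Nitrite libraries, 288, 237, 269 and 255 CPM in the CPB libraries, and 362, 396, 413 and 332 CPM in the sham libraries. All CPB libraries were below all sham libraries. Atp5f1c fell by 0.52 ± 0.15 (SE, adjusted p = 0.017) on the log2 scale, and Atp5mc3, a gene for the proton-carrying c ring, by 0.42 ± 0.16 (SE, adjusted p = 0.0444). Atp5mpl-ps1 carries a pseudogene symbol although the files class it as protein-coding, and its fall of 0.54 ± 0.19 (SE, adjusted p = 0.0369) is uncertain, since reads may be shared with a near-identical gene. Atp5f1a and Atp5f1b, the alpha and beta subunits of the F1 head (beta holds the catalytic sites), were the members with the most reads and did not pass, with log2 changes of -0.37 ± 0.16 (SE, adjusted p = 0.0768) and -0.18 ± 0.15 (SE, adjusted p = 0.35).

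Of the 15 members called lower, Ndufs1 and Ndufs3 were the ones called under every one of the 12 single-library omissions and the 8 other settings tried. Without CPB 2 these were the only 2 calls (15.3% of all genes were then lower), and the count ran from 2 to 24 over the omissions, the 24 without CPB+Nitrite 2 (26.2% of all genes). Without sham 1 it was 7 (16.6% of all genes) and the members' median was -0.31. Over the same omissions the median of the members stayed between -0.39 and -0.25.

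**Figure D2:**
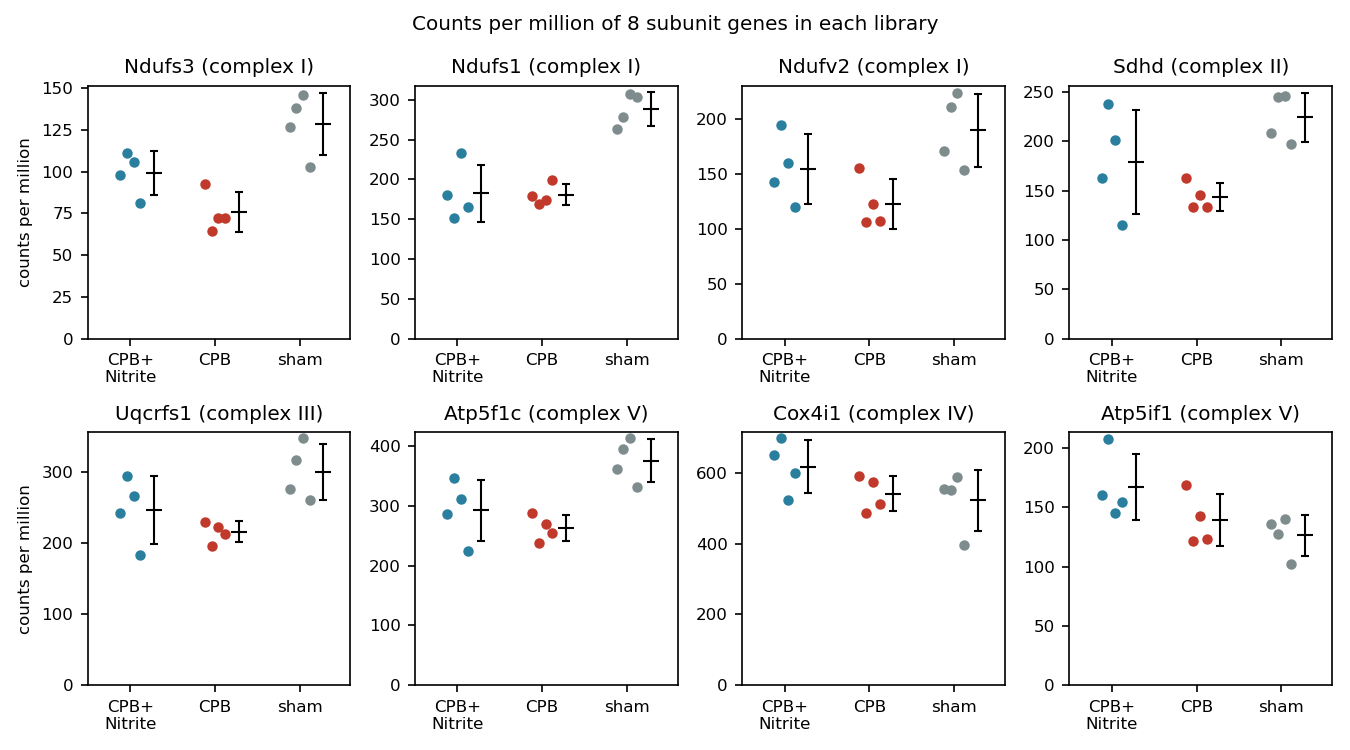
CPM (y axis, from 0) of 8 member genes in the 4 CPB+Nitrite, 4 CPB and 4 sham libraries; points are libraries and the bars beside them are the mean and SD (n = 4). Ndufs1 lies below the sham group in both bypass groups, whereas Cox4i1 and Atp5if1 do not.

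Complex IV, cytochrome c oxidase, reduces oxygen at the end of the chain. Its subunit Cox4i1 had 651, 701, 524 and 602 CPM in the CPB+Nitrite libraries, 592, 488, 576 and 514 CPM in the CPB libraries, and 555, 553, 589 and 398 CPM in the sham libraries. The 3 groups overlapped, sham 4 was the lowest library, and the log2 change after bypass was 0.05 ± 0.16 (SE, adjusted p = 0.811). Cox5a, which sits beside Cox4i1, averaged 163 ± 16.1 CPM in CPB+Nitrite, 163 ± 9.77 CPM in CPB and 177 ± 17.3 CPM in sham (SD, n = 4 each), with a log2 change of -0.12 ± 0.12 (SE, adjusted p = 0.448). Cox6a1 had a log2 change of -0.05 (adjusted p = 0.84), and the 2 rows named Cox6b1, on chromosomes 1 and 2, had -0.16 (adjusted p = 0.406) and -0.23 (adjusted p = 0.294); these log2 differences did not pass, and reads of the 2 Cox6b1 rows may be shared. Leaving aside Cox4i2, which had few reads, the log2 changes of the tested complex IV members ran from -0.23 to 0.05.

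A difference between complexes within a library does not depend on how libraries are scaled, so it was taken for members with a mean of at least 100 reads. The median log2 level of complex IV minus that of complex II, each relative to the sham mean, was 0.37, 0.44, 0.11 and 0.49 in the CPB+Nitrite libraries, 0.41, 0.24, 0.48 and 0.37 in the CPB libraries, and 0.02, 0.04, 0.06 and -0.11 in the sham libraries. Every bypass library, with or without nitrite, was above every sham library. The same difference against complex I was 0.22, 0.15, 0.05 and 0.15 in CPB+Nitrite, 0.24, 0.23, 0.32 and 0.24 in CPB, and -0.02, -0.01, 0.02 and 0.00 in sham. The sham values lie around 0 by construction, and no test was made on these scores. Complexes IV and II had the least and the most negative median change after bypass (-0.12 and -0.44). The separation of the CPB libraries from sham therefore largely restates those values and is no separate support for them.

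**Figure D3:**
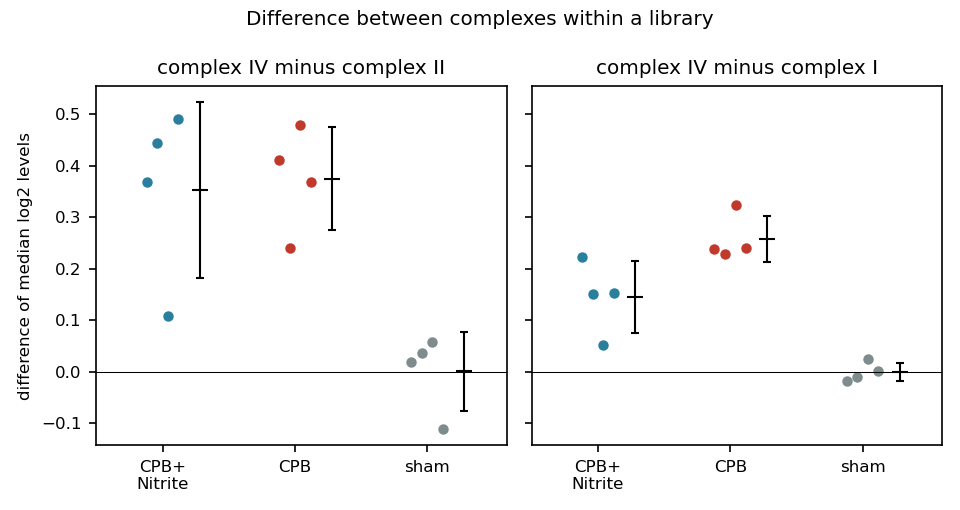
Difference of median log2 levels within a library (y axis), complex IV minus complex II on the left and complex IV minus complex I on the right, for CPB+Nitrite, CPB and sham; points are libraries, bars the mean and SD (n = 4). The 8 bypass libraries lie above the 4 sham libraries in both panels. Complexes IV and II are those with the least and the most negative median change after bypass.

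The inhibitor and the paralogs of restricted use were described apart. Atp5if1, which blocks ATP hydrolysis by the ATP synthase when respiration stops, had 160.0, 208, 145 and 154 CPM in the CPB+Nitrite libraries, 169, 122, 142 and 123 CPM in the CPB libraries, and 136, 127, 139.9 and 102 CPM in the sham libraries. Every CPB+Nitrite library was above every sham library, and the CPB libraries overlapped both. Its log2 changes were 0.40 ± 0.16 (SE, adjusted p = 0.139) for CPB+Nitrite against sham and 0.14 ± 0.16 (SE, adjusted p = 0.503) for CPB against sham, so neither passed. Cox4i2, the form of Cox4 known to be favoured in low oxygen, had 2, 69, 12 and 15 reads in the CPB+Nitrite libraries, 2, 4, 4 and 1 in the CPB libraries, and 16, 7, 4 and 14 in the sham libraries. Ndufa4l2, an induced paralog of Ndufa4, had 7, 84, 6 and 15 reads in CPB+Nitrite, 4, 8, 2 and 3 in CPB, and 10, 19, 7 and 16 in sham. In both genes CPB+Nitrite 2 was the highest library by far and the other CPB+Nitrite libraries overlapped sham. The endothelial marker sum of that library is given above, and its part in these values was not tested. Ndufa4 itself, placed with complex I by its symbol although its protein is known to associate with complex IV, averaged 239.7 ± 64.9 CPM in CPB+Nitrite, 211 ± 41.0 CPM in CPB and 241 ± 37.3 CPM in sham (SD, n = 4 each).

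The 9 members that were not tested had a mean below 10 reads. Cox6a2 and Cox7a1, known as muscle forms, had 0 to 6 and 3 to 34 reads a library, with the 34 in CPB+Nitrite 2. Cox8c, Ndufa5-ps4, Ndufs5-ps1 and both Atp5mk-ps2 rows had fewer than 5 reads in every library. Cox7a2 had 0 to 5.70 reads, while a row without a symbol, described as cytochrome c oxidase subunit 7A2, had 1379 to 3987 reads and a log2 change of -0.00 after bypass (adjusted p = 0.99). Atp5f1e, the epsilon subunit, had 0 to 5 reads. A total of 5 rows matched the symbols and were not classed as protein-coding, among them an Atp5mc1 row classed as lncRNA with a mean of 3901 reads and a log2 change of -0.44 after bypass (adjusted p = 0.0369).

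CPB+Nitrite was set against CPB to ask whether nitrite altered the transcripts of bypassed kidneys. No member passed, and none of the 14664 genes did (0%). At an unadjusted p under 0.05 the fit put 11 members higher and 0 lower, against 17.3% higher, 12.2% lower and 29.4% in either direction of all genes; DESeq2 called 3 members (15.3% of all genes) and limma voom 0 (0.00682% of all genes). Of 77 members 72 had a log2 change above 0, against 54.1% of all genes, and their median was 0.24, against 0.05 over all genes. Without CPB+Nitrite 2 the members' median was 0.12. Ndufv3 had the smallest p in complex I: 102, 137, 112 and 104 CPM in the CPB+Nitrite libraries, 96.1, 77.7, 81.1 and 66.0 CPM in the CPB libraries, and 117, 110.3, 111 and 93.7 CPM in the sham libraries. Its CPB+Nitrite and CPB ranges did not overlap, the log2 change was 0.51 ± 0.15 (SE, adjusted p = 0.066), and its CPB+Nitrite and sham ranges overlapped. Ndufa13 was the other tested member whose CPB+Nitrite and CPB ranges did not overlap (of all genes 6.44% lay wholly higher and 6.27% wholly lower).

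The members with the smallest p in the other complexes were Sdhd and Sdhb, Uqcrb and Uqcrq, Cox4i2 and Cox5b, and Atp5mpl-ps1 and Atp5mf. Sdhd had a log2 change of 0.32 (adjusted p = 0.284) and Sdhb of 0.13 (adjusted p = 0.549). Uqcrb had 0.39 (adjusted p = 0.153) and Uqcrq 0.37 (adjusted p = 0.206), both small subunits of complex III. Cox4i2 had 2.70 (adjusted p = 0.0787) and Cox5b 0.32 (adjusted p = 0.205); without CPB+Nitrite 2 the log2 change of Cox4i2 was 1.57 and its adjusted p 0.267. Atp5mpl-ps1 had 0.46 (adjusted p = 0.135) and Atp5mf, a membrane subunit of the ATP synthase, 0.38 (adjusted p = 0.218). Among the core subunits Ndufs3 had a log2 change of 0.39 ± 0.16 (SE, adjusted p = 0.128) and Ndufs1 of 0.01 ± 0.15 (SE, adjusted p = 0.955). Ndufs1 reversed sign within ±0.13 in several settings, so its direction here is not given.

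CPB+Nitrite was also compared with sham. Of the members 1 passed and was lower (1.30% of the 77), Ndufs1, against 0.955% lower, 3.85% higher and 4.81% in either direction over all genes; none was higher. Ndufs1 fell by 0.66 ± 0.15 (SE, adjusted p = 0.0391) on the log2 scale. This call was lost in 9 of 12 single-library omissions, in which 0% to 2.88% of all genes were called in either direction. Over all settings the log2 change of Ndufs1 stayed between -0.80 and -0.58. Log2 changes were below 0 in 46 members (47.1% of all genes) and above 0 in 31 (52.9%), and in 3 members (5.87%) the libraries lay wholly lower and in 1 (5.64%) wholly higher. The members' median was -0.03, against 0.04 over all genes, and -0.20 without CPB+Nitrite 2. Medians by complex were -0.03, -0.30, -0.03, 0.10 and -0.07 for complexes I to V. All 4 complex II members were below 0 and 9 of 11 complex IV members above it. Core members that did not pass included Ndufs3 at -0.37 (adjusted p = 0.15), Atp5f1a at -0.38 (adjusted p = 0.153) and Atp5f1b at -0.27 (adjusted p = 0.271). The comparisons share libraries, so these values are side by side and not independent.

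The level of the members was also taken library by library. Relative to the sham mean, their mean log2 level was -0.10, 0.27, -0.08 and -0.34 in the CPB+Nitrite libraries, -0.08, -0.48, -0.27 and -0.43 in the CPB libraries, and 0.01, 0.07, 0.15 and -0.24 in the sham libraries. The groups overlapped, and sham 4 lay below CPB 1. In CPB+Nitrite 2, 46 of 77 members were above all 4 sham libraries, whereas in CPB+Nitrite 4, 46 were below all 4. The matching shares over all genes were not taken, so these counts describe the 2 libraries and are not a result about the members. The summed level of the members was 15230 ± 1857 CPM in CPB+Nitrite, 14080 ± 1273 CPM in CPB and 17080 ± 1755 CPM in sham (SD, n = 4 each).

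**Figure D4:**
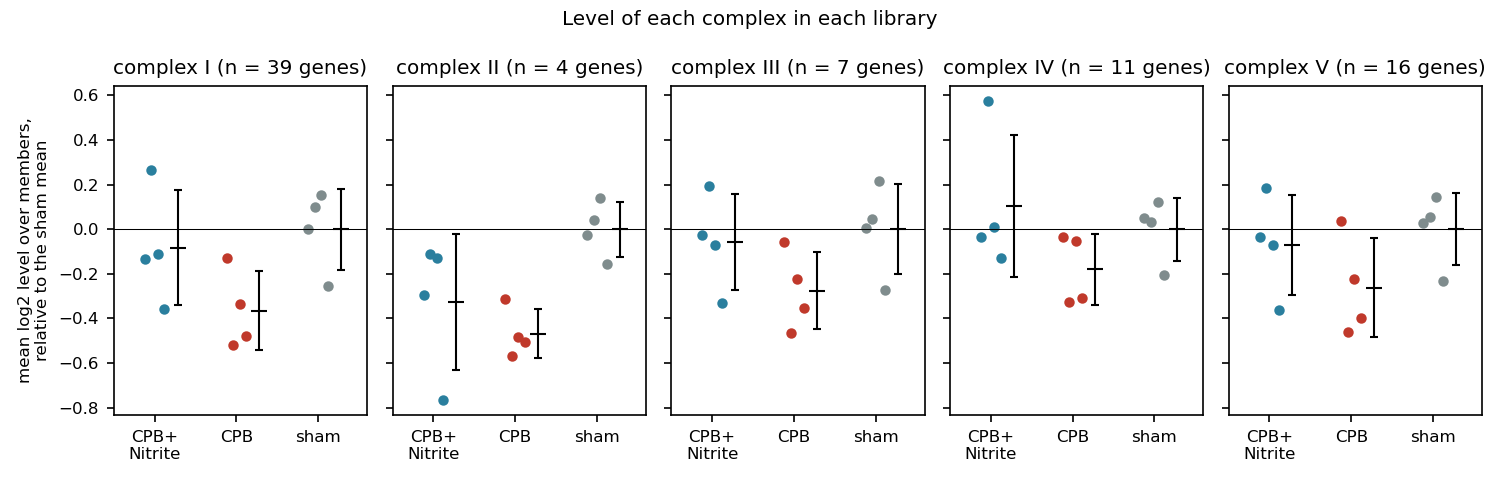
Mean log2 level over the tested members of each complex (y axis, relative to the sham mean) in each CPB+Nitrite, CPB and sham library; points are libraries, bars the mean and SD (n = 4). In complex II all 4 CPB libraries lie between -0.57 and -0.31, and the CPB+Nitrite library at the top of complex IV is CPB+Nitrite 2.

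Of the proximal tubule markers 5 of 10 were lower after bypass and 0 higher, against 21.5% and 21.7% of all genes. The log2 change was below 0 in 7 of the 10, so not all of them went down. Their summed level was 5493 to 7774 CPM in CPB+Nitrite, 5689 to 6344 CPM in CPB and 8955 to 9967 CPM in sham. Thick ascending limb markers were lower in 1 of 5 and collecting duct markers in 3 of 5. Outside the tubule, neutrophil markers were higher in 3 of 4 and lower in 1, and fibroblast and smooth muscle markers were lower in 3 of 5. Endothelial markers gave 1 higher and 1 lower of 5, macrophage markers 1 lower of 5 and podocyte markers 0 calls of 4. The part of these markers in the subunit changes was not tested.

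The other genes of the pathway were read from lists chosen with earlier results known. Over all genes tested 21.5% were lower after bypass, 21.7% higher and 43.2% changed in either direction. The 13 mitochondrially encoded subunits gave 0 calls after bypass (median log2 change 0.04), and their summed level was 116300 to 174400 CPM in CPB+Nitrite, 133900 to 151400 CPM in CPB and 124500 to 136700 CPM in sham. Of 17 complex I assembly factors 12 were lower and 0 higher, at a median of -0.51; Ecsit and Acad9, both needed to build the membrane arm, fell by 0.72 (adjusted p = 0.00407) and 0.62 (adjusted p = 0.00274). Assembly factors were lower in 1 of 3 for complex II, 3 of 9 for complex III, 4 of 18 for complex IV and 3 of 4 for complex V. The count for complex IV lay near the share of all genes lower (21.5%) and is not a result about that list. Lyrm7, which helps insert the Rieske protein, fell by 2.18 (adjusted p = 0.00101), and Cox15, which makes the heme A of complex IV, by 0.60 (adjusted p = 0.00571). A short list of subunits with symbols outside the pattern held Cyc1, Ndufab1 and Dmac2l, and all 3 were lower; a tested row described as like the ATP synthase epsilon subunit had a log2 change of -0.23 (adjusted p = 0.579).

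Electron carriers and coenzyme Q synthesis gave 12 lower and 1 higher of 16 (21.5% and 21.7% of all genes), at a median of -0.64. Coq8a, a kinase-like protein of coenzyme Q synthesis, fell by 1.56 (adjusted p = 0.00143), Pdss2, which makes the side chain, by 1.17 (adjusted p = 0.00107), and Etfdh, which feeds electrons from fatty acid oxidation to coenzyme Q, by 0.95 (adjusted p = 0.00253). Coq10b was the gene that rose, by 0.61 (adjusted p = 0.0295). Of 19 genes of mitochondrial membranes and import 5 were lower, near the share of all genes (21.5%), so the count is not a result about the list. Among the 5 were the adenine nucleotide carriers Slc25a4, by 0.84 (adjusted p = 0.00313), and Slc25a5, by 0.39 (adjusted p = 0.0362).

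Of 18 regulators of mitochondrial genes 6 rose and 6 fell after bypass (21.7% of all genes were higher and 21.5% lower). Ppargc1a, the coactivator of mitochondrial biogenesis, fell by 1.55 (adjusted p = 0.00634) and Esrra, an estrogen-related receptor, by 0.93 (adjusted p = 0.00107); Esrrb, Esrrg, Ppara and Polrmt were also lower. Nrf1 rose by 0.54 (adjusted p = 0.00835) and Gabpa, an ETS factor, by 0.38 (adjusted p = 0.0224); Pprc1, Nrip1, Gabpb1 and Yy1 were also higher. Tfam, which packages mitochondrial DNA, had a log2 change of 0.25 (adjusted p = 0.123). Against CPB none of these 18 regulators passed in CPB+Nitrite (0% of all genes did), nor against sham (4.81% of all genes did).

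**Figure D5:**
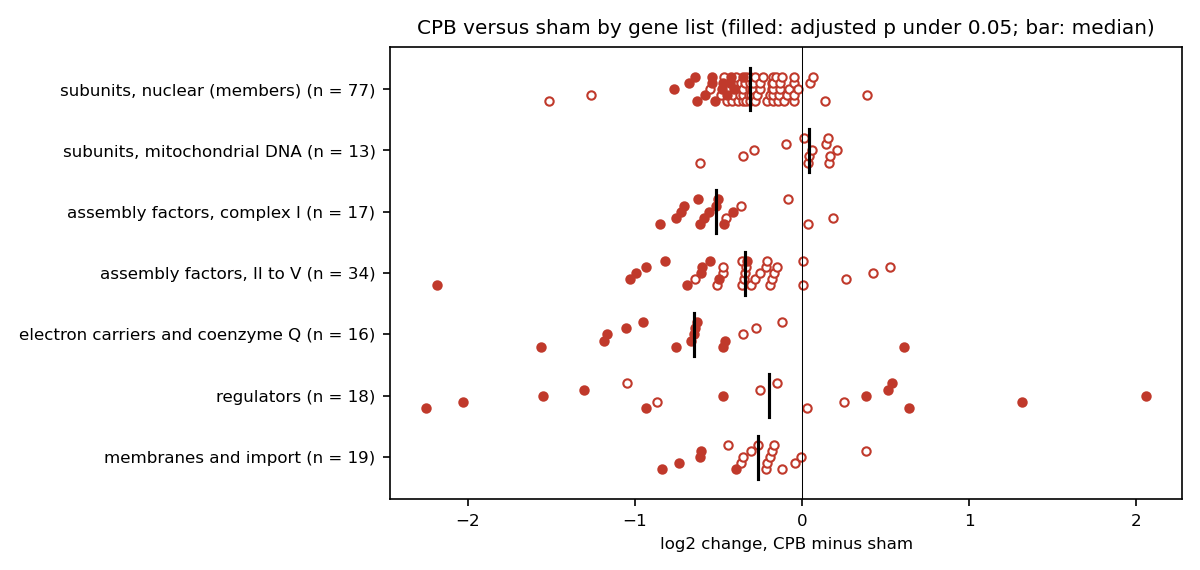
Log2 change of CPB minus sham (x axis) of the tested members and of 6 groups of related genes (y axis, with the number tested); filled points passed an adjusted p of 0.05 and the bar is the median. The medians are -0.31 for the members, -0.51 for complex I assembly factors, -0.64 for electron carriers and coenzyme Q genes and 0.04 for the mitochondrially encoded subunits.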

How the data were processed

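RNA of 12 rat kidney libraries (4 CPB+Nitrite, 4 CPB, 4 sham, grouped by title) was sequenced; per the labels' protocols, libraries were made with a directional kit. Salmon 1.2.1, cutadapt 1.18, bcl2fastq 2.19, R 3.5.1 and the build mRatBN7.2 are named in the submitters' processing notes. The authors deposited estimated counts per gene, not normalized (33.1% of non-zero values were not whole, tolerance 1e-06), and a second table whose scaled signal the authors made with 1 factor per library; that table gave symbols and coordinates. The summing of transcripts to genes is not given in the sources used here.

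Counts were rounded, filtered with filterByExpr (minimum count 10, 14664 of 20455 genes with reads kept) and scaled by TMM factors (0.887 to 1.11). All comparisons came from 1 fit of 12 libraries with edgeR 4.0.16 (glmQLFit, glmQLFTest, no covariates, 9 residual degrees of freedom) in R 4.3.3. Tests were two-sided, with Benjamini-Hochberg adjustment over all genes. The biological coefficient of variation was 0.317. The scripts were tested on simulated data.

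Alternatives were median-of-ratios factors, total counts, the authors' factors, no filter, a filter at a mean of 2 CPM, DESeq2 1.42.0, limma 3.58.1 (voom with sample weights), a replicate block and leaving out each library; one without pseudogene and like-copy rows was chosen after seeing the data. Members, lists and roles were chosen with earlier results of these data known. Named members were, per complex, up to 3 with the smallest p among calls (2 in CPB+Nitrite versus CPB), core subunits, Atp5if1 and genes with restricted paralogs; of the genes this rule allows, a part is named, with a few named beyond it, and 1 member is not reported here. Promoters came from RefSeq (GRCr8, by gene ID or symbol; 2 members matched on another chromosome or strand were left out), whose coordinates were not mixed with those of the files.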

Additional observations from a re-analysis of the deposited data

Results flagged for a closer look

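Over 30 tested named members and the mean levels of the 5 complexes and of all members, 108 groups of 4 libraries were examined for a library far from the other 3, and 6 were flagged; chance flags about 1 in 20 groups. In CPB+Nitrite, Atp5mc3 was at 263 CPM in CPB+Nitrite 4 (358 to 373 CPM in the other 3), Ndufa4l2 at 3.08 CPM in CPB+Nitrite 2 (0.294 to 0.667 CPM) and Uqcrb at 97.5 CPM in CPB+Nitrite 2 (59.2 to 65.3 CPM). In CPB, Ndufs8 was at 93.5 CPM (70.6 to 72.6 CPM) and Uqcrb at 67.1 CPM (49.2 to 51.2 CPM), both in CPB 1. In sham, Ndufs7 was at 119.8 CPM in sham 4 (153 to 159 CPM).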

How the results depend on the processing

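For CPB against sham the count of members lower was 15, and it was 41 with total counts alone (29.1% of all genes were then lower, and the median of all genes moved to -0.24 and that of the members to -0.50), 26 with the filter at 2 CPM (23.3% of all genes), 45 with limma voom (31.7%), 12 with median-of-ratios factors (20.2%), 12 with the authors' factors (20.2%), 10 without a filter (14.4%) and 15 with DESeq2 (22.7%). Over the 12 omissions of a library it ran from 2 to 24, with the share of all genes lower in parentheses: 2 without CPB 2 (15.3%), 3 without sham 2 (15.7%) or CPB 4 (15.4%), 4 without sham 3 (18.2%), 5 without CPB 3 (15.1%), 7 without sham 1 (16.6%), 23 without CPB+Nitrite 4 (21.9%) and 24 without CPB+Nitrite 2 (26.2%). For CPB+Nitrite against CPB, 3 members (Cox4i2, Ndufa4l2 and Ndufv3) were called by DESeq2 (15.3% of all genes) and, over the omissions, 0 to 3, the 3 arising without CPB+Nitrite 1 (19.3% of all genes). For CPB+Nitrite against sham the 1 call became 3 with limma voom (19.6% of all genes) and 0 to 1 over the omissions (0% to 20% of all genes). Causes of these changes were not tested. Complex IV gave 0 calls for CPB against sham in every setting. Correlations of same-numbered libraries ran from -0.107 to 0.381. They were not set against those of other pairs, so they cannot show whether the replicate numbers pair the libraries. With the replicate numbers as a block the member counts were 16, 0 and 0 in the 3 comparisons. Of all genes 42.5% (21.3% lower), 0% and 0.191% were then called. The call of Ndufs1 in CPB+Nitrite against sham was lost, in a comparison where the share of all genes called went from 4.81% to 0.191%.

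Reversals of sign were looked for in the named members alone. The log2 changes that reversed belonged to members not called in the comparison concerned. For CPB against sham these were Cox4i1 (-0.14) and Atp5if1 (-0.047) with total counts, and over the omissions Cox4i1 ran from -0.060 to 0.12 and Cox6a1 from -0.14 to 0.017. For CPB+Nitrite against CPB they were Ndufs1 (-0.0046 with median-of-ratios factors and DESeq2, -0.0026 without a filter), Cox5a (-0.0137 with median-of-ratios factors, -0.0138 with DESeq2, -0.0047 with the authors' factors, -0.015 without a filter and -0.029 with voom), Atp5f1a (0.11 with total counts, 0.028 at 2 CPM) and Atp5f1b (0.028 with total counts). Over the omissions in that comparison Ndufs1 ran from -0.13 to 0.096, Ndufv1 from -0.011 to 0.11, Sdha from -0.057 to 0.13, Cox5a from -0.040 to 0.067, Cox6b1 on chromosome 1 from -0.082 to 0.11 and Atp5f1a from -0.099 to 0.098. For CPB+Nitrite against sham they were Ndufa4 (0.0067 with median-of-ratios factors and DESeq2, 0.022 with the authors' factors), Ndufa4l2 (-0.11 with voom), Cox6a1 (-0.0015 with voom) and Cox6b1 on chromosome 2 (-0.0014 with total counts, -0.062 with voom). Over the omissions in that comparison Ndufa4 ran from -0.19 to 0.12, Ndufa4l2 from -0.37 (without CPB+Nitrite 2) to 1.30 and Cox6b1 on chromosome 2 from -0.067 to 0.17.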
